A study of Mus musculus with 3 samples.

Results

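The mouse mitochondrial genome and its copies in nuclear DNA were described in vestibular cells of the inner ear that looked like black balls. The set held 40 of the 57180 genes in the deposited table. It comprised all 37 genes whose symbol starts with mt- (13 protein genes, 2 ribosomal RNA genes and 22 transfer RNA genes) and 3 nuclear copies on chromosome 1, Gm29216, Gm28437 and Gm10925. The mt- genes were taken by symbol. The 3 copies were chosen by their high counts in these same libraries, so all levels are descriptions and no test was run on them. Each of the 3 libraries (replicates 1, 2 and 3) came from wild-type (WT) mice and forms part of 1 group with no control group. The labels call the cells macrophages, although the series title speaks of melanocytes. Per the labels' protocols, 18 cells from 9 mice were lysed, with 3 mice per group. The labels do not say which cells or mice went into which library, so the spread between libraries may be technical. Polyadenylated RNA was primed with oligo(dT) and amplified by PCR with the SMART-Seq HT kit. Markers did not single out 1 cell type. In every library 13 of 13 macrophage, 9 of 12 melanocyte and 8 of 8 fibroblast and fibrocyte markers reached 1 TPM (a length-corrected level). So did 9 of 10 hair cell, 8 of 9 dark cell and stria and 6 of 7 erythroid markers. The numbers were lower for neurons (6 of 8) and neutrophils (5 of 8). Of all genes with a count, 46.7% reached it.

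Mitochondria carry a small circular genome that is transcribed from both strands into long precursors. Enzymes release tRNAs that lie between the other genes, and this frees the mRNAs and rRNAs. The protein genes encode core subunits of the respiratory chain and of ATP synthase. The rRNAs and tRNAs serve the organelle's own ribosomes. Most mouse mitochondrial mRNAs receive poly(A) tails, and for some of them the tail completes the stop codon. Stretches of mitochondrial DNA have also been copied into the nuclear genome during evolution, and reads from such a copy and from its mitochondrial source can be hard to tell apart.

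The 3 nuclear copies repeat the mitochondrial genes almost letter for letter. They lie in 1 stretch of chromosome 1 (GRCm39): Gm28437 at chr1:24652270-24653052, Gm10925 at chr1:24653055-24653732 and Gm29216 at chr1:24654787-24655278. All 3 are annotated as unprocessed pseudogenes. Their sequences were read by gene identifier from the GENCODE M21 transcripts (GRCm38, minus strand), which have the same lengths. The 783 bases of Gm28437 had no mismatch to mt-Co3, and the 678 bases of Gm10925 had no mismatch to mt-Atp6. Gm29216 matched the end of mt-Co1 from base 1063 to base 1545, with 1 mismatch in 483 aligned bases. The ends of the identical pairs, 5′ to 3′, show where each copy stops, with capitals marking the bases that the mitochondrial gene has beyond its copy.
mt-Co3: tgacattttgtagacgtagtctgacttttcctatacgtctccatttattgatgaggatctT
Gm28437: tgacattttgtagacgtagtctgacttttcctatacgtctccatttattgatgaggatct
mt-Atp6: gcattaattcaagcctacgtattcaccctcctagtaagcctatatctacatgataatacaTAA
Gm10925: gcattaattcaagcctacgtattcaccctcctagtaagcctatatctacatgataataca
The lone T at the end of mt-Co3 is the first base of a stop codon that the poly(A) tail completes. The start of Gm29216 is shown against mt-Co1 from base 1054 because all of its differences lie there, in capitals.
mt-Co1: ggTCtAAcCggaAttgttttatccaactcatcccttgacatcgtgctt
Gm29216: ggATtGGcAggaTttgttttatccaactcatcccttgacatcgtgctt
Counted from the first base of mt-Co1, the 6 substitutions are T1056A, C1057T, A1059G, A1060G, C1062A and A1066T. No other base of the copy differed over its 492 bases.

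Mitochondrially encoded genes took a larger share of the counts in replicate 2 than in the other libraries. Library totals were 18460546, 15086854 and 14095521 counts for replicates 1, 2 and 3. The mt- genes held 2.40% of the total in replicate 1 (exact 95% binomial interval 2.398% to 2.412%), 5.40% in replicate 2 (5.38% to 5.41%) and 2.60% in replicate 3 (2.59% to 2.61%), or 3.47% ± 1.67 (SD, n = 3). Replicates 1 and 3 were close together and replicate 2 stood apart. Intervals and floors cover counting error only, because amplified copies of a molecule carried no identifier. Without replicate 2 the mean share was 2.503%. Each library is a sum over cells, so fewer cells of a type and less RNA per cell cannot be told apart.

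**Figure D1:**
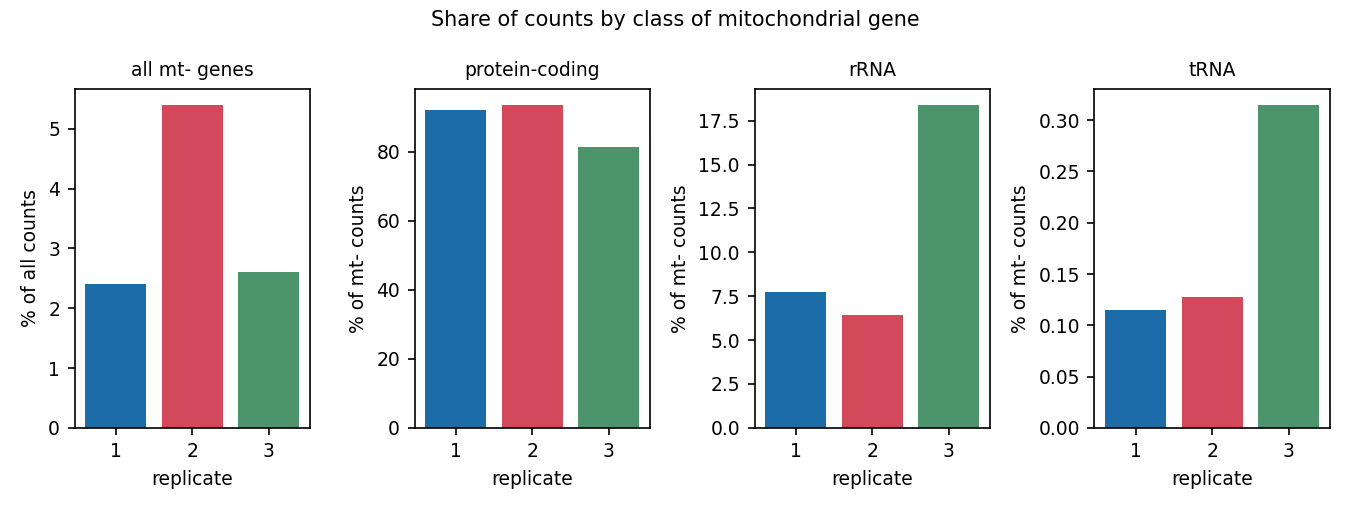
Share of counts in each library (bars, replicates 1 to 3). The left panel gives all mt- genes as percent of all counts, and the other panels give each class as percent of the mt- counts. Replicate 2 is highest in the left panel at 5.40%, and replicate 3 is highest for rRNA at 18.4% and for tRNA at 0.315%.

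All 40 genes stood at 1 TPM (the deposited FPKM, a length-corrected level, rescaled to the same sum in each library) or more in every library, against 46.7% of the 27265 genes with a count. For a tRNA gene 1 count is worth more than 1 TPM, so this count says only that each was detected. At 1 CPM (counts scaled to the library total, without gene length) or more in every library stood 22 of the 40. Of the 40 genes, 20 had a mean of at least 10 CPM: the 13 protein genes, both rRNAs, the 3 copies, and the tRNA genes mt-Te and mt-Ts1. Among these 20, the highest library was at least 2-fold above the lowest for 19, against 52.1% of the 10307 genes with that mean. The median ratio of highest to lowest library was 2.51 for these members and 2.05 for all such genes. Replicate 2 was the highest library for 16 of the 20, against 26.2% of all such genes, and replicate 3 for 4, against 40.5%. These genes share long precursors and, for the copies, sequence, so they are not independent. With TMM or DESeq2 scaling mt-Te moved from replicate 3 to replicate 2.

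The protein genes together stood at 22162 CPM in replicate 1, 50405 CPM in replicate 2 and 21150 CPM in replicate 3, a ratio of highest to lowest of 2.38. Replicate 2 was the highest library for 12 of the 13. The exception was mt-Nd3. Relative to replicate 1, replicate 2 was higher by 2.08-fold to 2.603-fold across the 13 genes. Relative to replicate 1, replicate 3 was higher for 7 of them and lower for 6, from 0.688-fold for mt-Cytb to 3.46-fold for mt-Nd3. The 13 genes made up 92.2%, 93.4% and 81.3% of the mt- counts in replicates 1, 2 and 3.

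By mean TPM, mt-Cytb and mt-Co1 were the highest of the 40 genes, followed by the copy Gm29216 and mt-Co3. In replicate 3 alone, Gm29216 stood highest at 11212 TPM. mt-Cytb encodes the mitochondrial subunit of complex III, which passes electrons from ubiquinol to cytochrome c (chromosome MT, 14145 to 15288). It stood at 11044, 23272 and 6505 TPM in replicates 1, 2 and 3, the third highest mean TPM of all genes. Replicate 2 was highest and replicate 3 lowest, and the mean was 13607 ± 8673 TPM (SD, n = 3). The catalytic subunit of complex IV, which reduces oxygen, is encoded by mt-Co1 (5328 to 6872), at 10447, 19586 and 7459 TPM. mt-Co3 (8607 to 9390), another core subunit of complex IV, stood at 8939, 18242 and 6456 TPM. mt-Co2 (7013 to 7696), which receives electrons from cytochrome c, was lower at 2864, 5832 and 3500 TPM. The 3 complex IV genes took 45.6%, 43.1% and 42.1% of the protein gene counts.

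The complex I genes, whose products form the membrane arm of the NADH dehydrogenase, spread over the widest range. mt-Nd1 (2751 to 3707) led them at 6087, 13262 and 6942 TPM. mt-Nd4 (10167 to 11544) stood at 3134, 7047 and 2945 TPM and mt-Nd5 (11742 to 13565) at 1438, 2682 and 990 TPM. mt-Nd2 (3914 to 4951) stood at 1496, 3496 and 2829 TPM. At the lower end, mt-Nd3 (9459 to 9806) stood at 152, 313 and 451 TPM and mt-Nd4l (9877 to 10173) at 119, 226 and 111 TPM. mt-Nd3 was highest in replicate 3 and lowest in replicate 1 under total, TMM and DESeq2 scaling alike. mt-Nd4l, which shares 7 bases with mt-Nd4, stood at 0.0359 ± 0.0033 of the TPM of mt-Nd4.

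mt-Atp6 and mt-Atp8 encode subunits of ATP synthase that are read from 1 shared mRNA. mt-Atp6 (7927 to 8607) stood at 2521, 5398 and 2103 TPM and mt-Atp8 (7766 to 7969) at 1222, 2326 and 852 TPM. The 2 genes overlap by 43 bases, and no source used here states how reads in an overlap were assigned. They kept 3.57%, 3.69% and 3.57% of the protein gene counts, nearly the same in each library.

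mt-Nd6, another complex I gene (13552 to 14070), is the protein gene on the light strand, opposite to the other 12. It stood at 1925, 4078 and 2662 TPM in replicates 1, 2 and 3. Per base it stood above its neighbour mt-Nd5, on the other strand, by a TPM ratio of 1.34, 1.52 and 2.69. It took 1.81%, 1.88% and 3.07% of the protein gene counts. The genes overlap by 14 bases, and no source used here states whether counting used strand, so reads from the light-strand gene and from heavy-strand RNA across it cannot be told apart.

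Levels of neighbouring genes in this order were mostly not separated. When the 13 protein and 2 rRNA genes were ordered by mean TPM, the ranges over 3 libraries overlapped in 13 of 14 neighbouring pairs. mt-Atp8 stood above mt-Nd3 without overlap. The order within a pair held in every library for 5 of the 14 pairs.

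**Figure D2:**
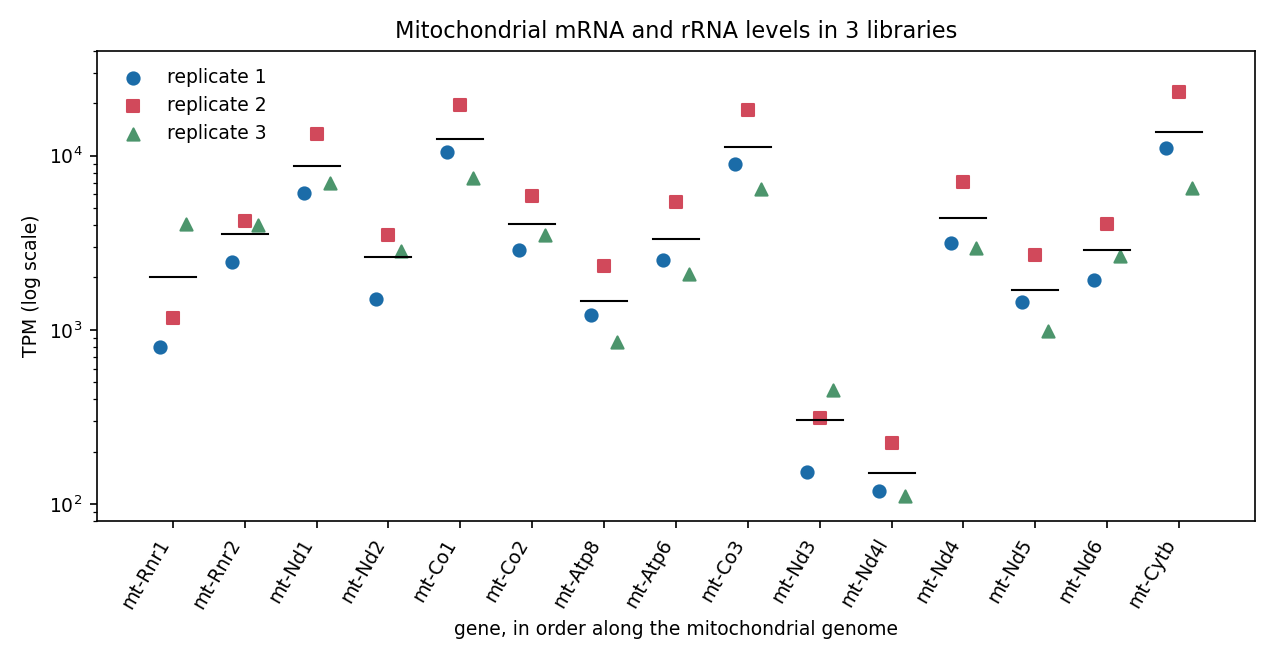
TPM of the 13 protein genes and 2 rRNA genes in 3 libraries (points, log axis), with the mean as a line, in order along the mitochondrial genome. Replicate 2 is the highest library for 12 of 13 protein genes, while mt-Rnr1 and mt-Nd3 are highest in replicate 3.

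Of the ribosomal RNAs, mt-Rnr1 departed more from the protein genes than mt-Rnr2 did. mt-Rnr1, the 12S rRNA of the small subunit of the mitochondrial ribosome (70 to 1024), had 5647, 7522 and 25691 counts, or 306, 499 and 1823 CPM, in replicates 1, 2 and 3. Replicate 3 stood far above the other libraries, 5.96-fold above the lowest. mt-Rnr2, the 16S rRNA of the large subunit (1094 to 2675), had 28673, 44931 and 41717 counts, or 1553, 2978 and 2960 CPM. With total-count scaling replicates 2 and 3 were nearly level for mt-Rnr2, and replicate 1 was lower. With TMM scaling replicate 2 stood at 3245 CPM and replicate 3 at 2762 CPM. From replicate 1, mt-Rnr2 rose 1.91-fold to replicate 3, inside the range of the protein genes (0.688 to 3.46). To replicate 2 it rose 1.92-fold, just below their range (2.08 to 2.60). The TPM of mt-Rnr1 was 0.326, 0.277 and 1.02 of that of mt-Rnr2, so the rRNAs stood close to each other in replicate 3 alone of the 3 libraries.

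Set against the protein genes per length, the rRNAs stood at a ratio of mean TPM of 0.410, 0.330 and 1.19 in replicates 1, 2 and 3. Replicates 1 and 2 lay close together and replicate 3 stood apart. Without replicate 3 the mean ratio was 0.370 in place of 0.645. The rRNAs took 7.73%, 6.44% and 18.4% of the mt- counts. Leaving out the protein genes that have a copy in the chromosome 1 stretch, a choice made after seeing the data, gave 0.419, 0.328 and 1.16. The labels describe the RNA as polyadenylated, and mature rRNAs have at most short A tails, so these values do not measure the amount of ribosomes.

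Among the protein and rRNA genes, the make-up of the mitochondrial counts was more alike in replicates 1 and 2 than in replicate 3. Over the 13 protein genes the share of the mt- counts changed from replicate 1 to replicate 2 by factors between 0.926 and 1.16. Replicate 3 divided by the mean of replicates 1 and 2 gave factors between 0.621 (mt-Cytb) and 3.16 (mt-Nd3). Of these 13 shares, 6 were highest in replicate 3, 6 were lowest there and 1 lay between. The shares of mt-Nd3, mt-Nd2 (factor 1.89), mt-Nd6 (1.46) and mt-Co2 (1.31) were higher in replicate 3. Those of mt-Cytb, mt-Nd5 (0.772), mt-Atp8 (0.774) and mt-Co3 (0.774) were lower. The same factor was 6.38 for mt-Rnr1 and 1.90 for mt-Rnr2. From replicate 1 to replicate 2 both rRNA shares fell, that of mt-Rnr1 by a factor of 0.727 and that of mt-Rnr2 from 6.46% to 5.52%. The tRNA gene mt-Tl1 went another way, with shares of 0.00878%, 0.0213% and 0.0136% in replicates 1, 2 and 3. Shares of 1 total are tied, so they cannot all move the same way.

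**Figure D3:**
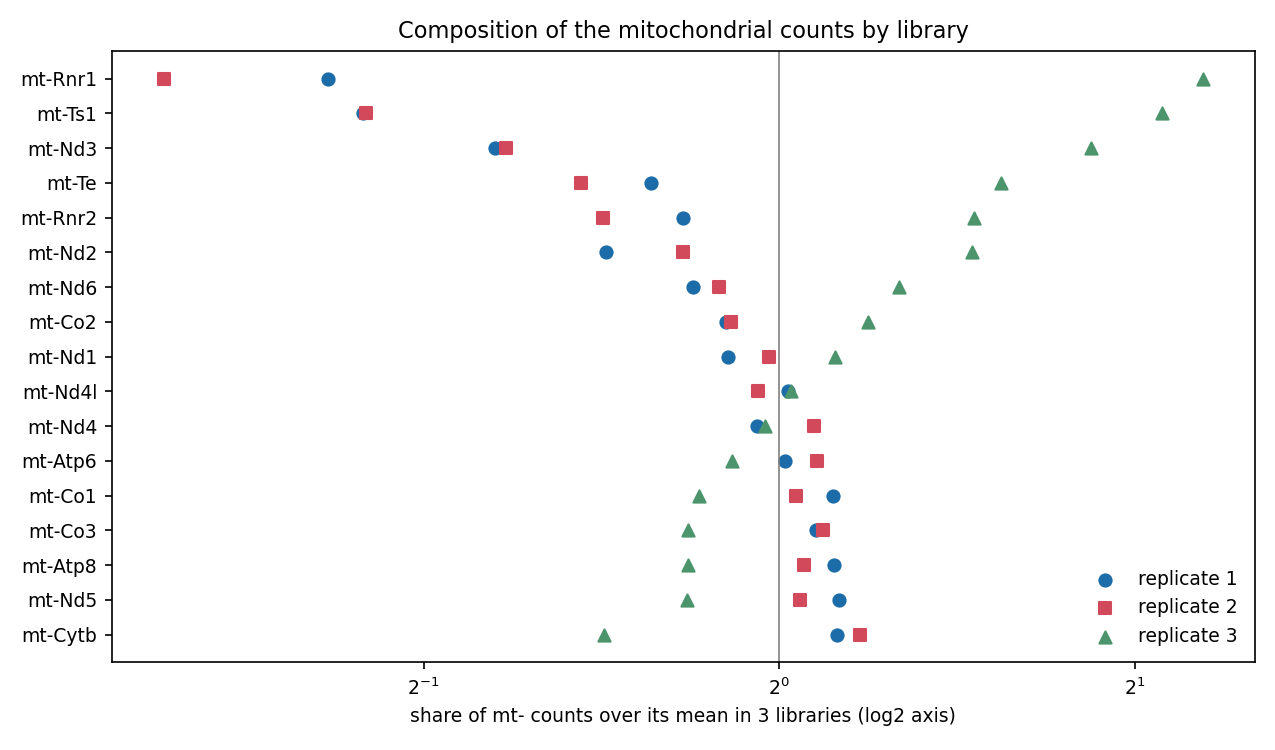
Share of the mt- counts held by each of 17 genes, divided by its mean over 3 libraries (points, log2 axis). Replicates 1 and 2 lie near each other, while replicate 3 is highest for 10 of the 17 genes and lowest for 6.

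Of the transfer RNAs, a few genes held most of the counts. Mature tRNAs carry amino acids to the ribosome, are short and have no poly(A) tail. The 22 tRNA genes together had 509, 1042 and 1154 counts in replicates 1, 2 and 3, or 0.115%, 0.128% and 0.315% of the mt- counts. Above the floor of 3 counts in every library were 10 of the 22, and 15 had fewer than 10 counts in at least 1 library. The tRNA total in CPM was lowest in replicate 1 under each scaling. It was higher in replicate 3 than in replicate 2 with total and TMM scaling, and nearly level with DESeq2 size factors (1170 scaled counts in replicate 2 and 1169 in replicate 3).

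The sequences of the 2 tRNA genes with the most counts are shown with those of 2 that had hardly any. Capitals mark bases that another gene also covers, and the GENCODE M21 transcripts gave the letters, 5′ to 3′ on the strand of each gene.
mt-Te: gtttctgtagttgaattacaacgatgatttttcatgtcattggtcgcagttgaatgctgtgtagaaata
mt-Ts1: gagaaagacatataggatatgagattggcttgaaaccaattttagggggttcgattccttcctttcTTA
mt-Ts2: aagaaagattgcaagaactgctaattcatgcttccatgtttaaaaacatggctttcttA
mt-Tf: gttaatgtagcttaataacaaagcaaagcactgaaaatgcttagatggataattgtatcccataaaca
mt-Te, the glutamic acid tRNA (14071 to 14139), had 253, 404 and 413 counts in replicates 1, 2 and 3. mt-Ts1, a serine tRNA (6870 to 6938), had 110, 203 and 431. In CPM, mt-Ts1 was highest in replicate 3, 5.13-fold above the lowest library. mt-Tf, the phenylalanine tRNA, had 2, 3 and 1 counts. mt-Ts2, another serine tRNA, had 1 count in each library, with an exact Poisson interval of 0.0253 to 5.57 counts.

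mt-Te and mt-Ts1 together held 71.3%, 58.3% and 73.1% of the tRNA counts. Both lie on the light strand. The 8 light-strand tRNA genes held 81.3%, 69.7% and 87.4% of the tRNA counts, and the other 14 genes the rest. Most of this light-strand share came from mt-Te and mt-Ts1, with 363 of 414, 607 of 726 and 844 of 1009 counts. mt-Te and mt-Ts1 lie next to abundant protein genes, as do mt-Tg and mt-Ty. The part of these neighbours in the tRNA counts was not tested. mt-Tg, directly after mt-Co3, had 5, 20 and 7 counts. mt-Ty, on the light strand next to mt-Co1, had 7, 10 and 8. mt-Te starts 0 bases after mt-Nd6 and ends 5 bases before mt-Cytb, and mt-Ts1 shares 3 bases with the end of mt-Co1 on the opposite strand. Reads of longer RNAs that run across a tRNA gene and reads of the tRNA cannot be told apart in these counts.

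The leucine tRNA mt-Tl1 (2676 to 2750), directly after mt-Rnr2, had 39, 173 and 50 counts and was highest in replicate 2. The glutamine tRNA mt-Tq (3772 to 3842) had 21, 42 and 89 and was highest in replicate 3. mt-Ti, for isoleucine, had 17, 41 and 38 counts, mt-Tm, for methionine, 14, 33 and 15, and mt-Tc, for cysteine, 14, 26 and 23. Among the tRNA genes between mt-Nd2 and mt-Co1, mt-Tn (asparagine) had 3, 20 and 24 counts, mt-Ta (alanine) 2, 15 and 13, mt-Tw (tryptophan) 2, 17 and 10, and mt-Ty (tyrosine) 7, 10 and 8. mt-Tg, for glycine, had 5, 20 and 7. The other 9 (mt-Tp, mt-Td, mt-Tt, mt-Tr, mt-Tv, mt-Tk, mt-Tl2, mt-Th and mt-Tf) had between 1 and 8 counts in each library, too few to order the libraries.

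**Figure D4:**
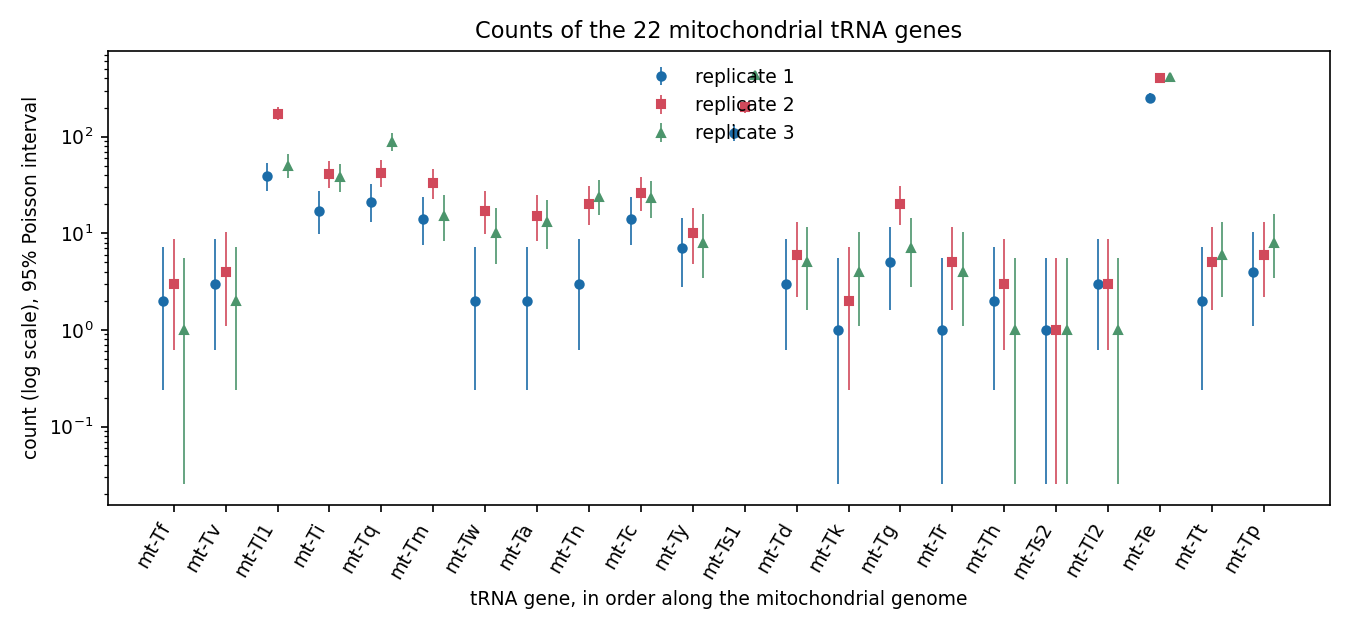
Counts of the 22 tRNA genes in 3 libraries (points, log axis) with 95% Poisson intervals (bars, counting error only), in order along the mitochondrial genome. mt-Ts1 and mt-Te stand highest, with 110 to 431 and 253 to 413 counts.

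The nuclear copies stood near, above or below the mitochondrial genes they repeat, depending on the copy. Gm28437 had 51183, 94099 and 31882 counts in replicates 1, 2 and 3, beside 52024, 96640 and 33499 for mt-Co3. Per base it stood at 0.985, 0.975 and 0.953 of mt-Co3. Gm10925 had 39830, 76443 and 28508 counts, beside 12742, 24839 and 9479 for mt-Atp6, so the copy stood 3.14, 3.09 and 3.02 times as high per base. No other gene of the table overlaps Gm10925, whereas mt-Atp6 shares 44 of its 681 bases with mt-Atp8 and mt-Co3. The part of this overlap in the difference was not tested. Gm29216 had 29194, 52326 and 36510 counts, or 0.765, 0.804 and 1.503 times the counts per base of mt-Co1 as a whole. The 3 copies together held 21.3%, 21.5% and 20.9% of the sum of mt- and copy counts, 21.2% ± 0.303 (SD, n = 3). This share barely moved while the mt- share of all counts more than doubled between libraries. Its parts did move: Gm29216 had the fewest counts of the 3 copies in replicates 1 and 2 and the most in replicate 3.

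The same stretch of chromosome 1 holds 4 further copies, named after their values were seen. A BLAST search of the mt- genes against all GENCODE M21 transcripts found 16 genes that match a mitochondrial protein gene over at least 150 bases at 90% identity or more, and each is in the table. Of these, 7 lie in a block of 4663 bases (chromosome 1, 24650616 to 24655278) with at least 99.7% identity over the bases that BLAST aligned (483 of 492 for Gm29216), 5 of them with no mismatch. Gm28661 stood at 0.912, 0.906 and 0.909 of the counts per base of mt-Co2 and Gm28438 at 0.901, 0.924 and 0.927 of those of mt-Nd3. Gm10222 stood at 0.887, 0.948 and 0.820 of those of mt-Nd4l. Gm28439 stood at 0.369, 0.370 and 0.191 of those of mt-Nd4.

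The other 9 copies, which lie elsewhere and match at 90.7% to 97.6%, were far lower. Their counts per base reached at most 11.8% of the mitochondrial gene in any library, and those of the 7 copies in the block lay between 0.191 and 3.14 times it, so the groups did not overlap. Gm13340, a copy of the whole of mt-Co1 on chromosome 2 with 37 mismatches in 1545 bases, stood at 4.07%, 3.62% and 3.52% of the counts per base of mt-Co1. Gm11410, a copy of mt-Cytb on chromosome 4 with 81 mismatches, had 2, 4 and 1 counts beside 93786, 179899 and 49252. No source used here states how reads that match several genes were assigned, so the counts of identical copies measure neither transcription of chromosome 1 nor that of the mitochondrial gene alone. The 7 copies held 0.767%, 1.75% and 0.820% of all counts.

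**Figure D5:**
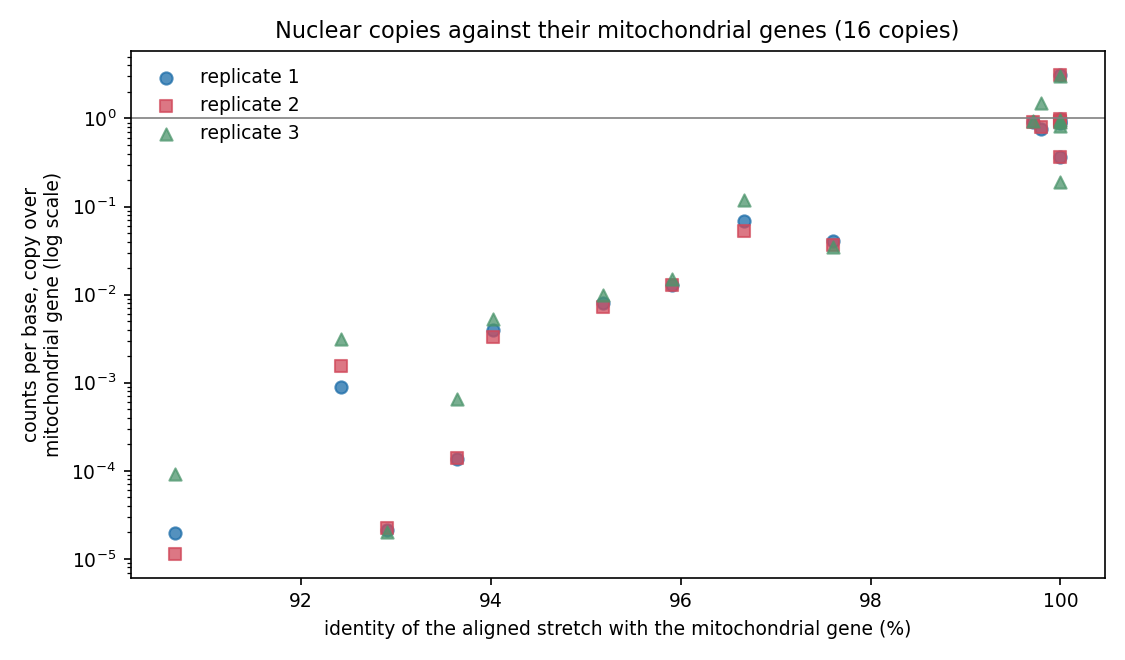
Counts per base of 16 nuclear copies divided by those of the mitochondrial gene (points, log axis) against the identity of the aligned stretch. The 7 copies above 99% lie between 0.191 and 3.14, and the other 9 lie at or below 11.8% of the mitochondrial gene.

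Some copies that repeat only part of a gene had another value in replicate 3 than in the other libraries; those given here were picked after their values were seen. Gm29216 repeats the 3′ end of mt-Co1, and its counts per base relative to mt-Co1 were 1.503 in replicate 3 against 0.765 and 0.804. Gm28439 repeats the first 876 of the 1378 bases of mt-Nd4, and its value was 0.191 in replicate 3 against 0.369 and 0.370. Gm13339, on chromosome 2, repeats mt-Nd2 from base 529 to its end at 96.7% identity, and stood at 6.87%, 5.33% and 11.8%. For these 3 copies replicate 3 lay outside the range of replicates 1 and 2. That alone does not set them apart. Copies of nearly whole genes in the block, except Gm28661, also lay outside it, by smaller relative shifts. Gm28437 stood at 0.953 in replicate 3 against 0.985 and 0.975, and Gm10925 at 3.02 against 3.14 and 3.09. The other partial copies were also highest in replicate 3, where Gm28439 was lowest. Gm4076, a copy of part of mt-Nd5, stood at 0.806%, 0.726% and 0.997%. Gm11407, another, stood at 0.0885%, 0.156% and 0.317% with 10, 30 and 22 counts. Gm50174, a copy of part of mt-Atp6, stood at 0.396%, 0.334% and 0.532% with 14, 23 and 14 counts. Gm11512, a copy of part of mt-Co1, had only 1, 1 and 3 counts. Of the 5 copies of nearly whole genes in the block, Gm10222 varied most (0.820 to 0.948). Coverage along the genes was not examined, since the table gives 1 count per gene.

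The nuclear genes of oxidative phosphorylation, from a list of 74 subunits, did not share the order of the libraries. Their counts made up 1.91%, 2.01% and 2.97% of replicates 1, 2 and 3, highest in replicate 3. Of the 73 with a mean of at least 10 CPM, 57 were highest in replicate 3, against 40.5% of all genes with that mean, and 5 in replicate 2, against 26.2%. All 11 complex IV subunits were highest in replicate 3, led by Cox8a at 1801, 1953 and 3063 TPM, before Cox6a1 and Cox6b1. In complex I, 28 of 37 were highest there, with Ndufa2 at 1236, 1308 and 2328 TPM, before Ndufb9 and Ndufb11. In complex III, 6 of 9 were highest there. Uqcr10 (464, 489 and 794 TPM) and Uqcr11 (456, 546 and 718 TPM) were among them, whereas Uqcrfs1, the iron-sulfur subunit, was lowest there at 641, 686 and 453 TPM. In complex V, 12 of the 16 with that mean were highest there. Atp5mc3, a subunit of the rotor ring, stood at 441, 409 and 595 TPM and Atp5f1d at 318, 228 and 512 TPM, while Atp5f1c, the central stalk subunit gamma, was lowest there at 411, 448 and 252 TPM. The ratio of mitochondrial to nuclear counts for these complexes was 1.16, 2.51 and 0.711 in replicates 1, 2 and 3.

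Genes that maintain and express the mitochondrial genome had similar sums in the 3 libraries, although single genes differed. The 30 genes for its DNA and RNA, such as the RNA-processing subunit Hsd17b10 (422, 280 and 380 TPM) the mRNA-binding Slirp (56.9, 51.4 and 67.6 TPM) and Rexo2, an exonuclease for short RNAs (56.9, 45.9 and 66.7 TPM), summed to 0.132%, 0.133% and 0.125% of the counts. Of the 23 with a mean of at least 10 CPM, 13 differed at least 2-fold between libraries, against 52.1% of all such genes, and 11 were highest in replicate 2, against 26.2%. The 3 named genes were lowest in replicate 2. The 78 protein genes of the mitochondrial ribosome, with Mrps6 highest at 1362, 1190 and 1420 TPM before Mrpl34 and Mrps28, summed to 0.816%, 0.823% and 0.915%. All 78 stood at 1 TPM or more in every library, as did 25 of the 30, against 46.7% of all genes with a count.

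Markers of other cells also differed between the libraries. All 8 neutrophil markers were highest in replicate 2, although only 2 had a mean of at least 10 CPM, where 26.2% of all genes were highest in that library, and 3 fell below 1 TPM in some library. In replicate 2 they summed to 172 CPM, against 17.7 CPM in replicate 1 and 63.1 CPM in replicate 3. S100a8 led them at 6.71, 159 and 61.6 TPM, before S100a9. The 9 markers of dark cells and stria, epithelia rich in mitochondria, summed to 882, 1282 and 1132 CPM, with 3 of the 9 highest in replicate 2 and 6 in replicate 3. Of the 8 with a mean of at least 10 CPM, 3 were highest in replicate 2, against 26.2%, and 5 in replicate 3, against 40.5%. Kcnj13 led them at 189, 403 and 136 TPM, before Slc12a2. The 7 erythroid markers, led by Hba-a1 and Hbb-bt, summed to 9148, 14004 and 25255 CPM and the 8 neuron markers, led by Snap25 and Nefl, to 145, 193 and 835 CPM, both highest in replicate 3. The 10 hair cell markers, led by Pvalb and Ocm, summed to 779, 633 and 870 CPM. The 8 fibroblast and fibrocyte markers, led by Coch and Otos, summed to 24026, 26628 and 18858 CPM. The 13 macrophage markers, led by Lyz2 and Ctss, summed to 5095, 3759 and 4368 CPM. Lyz2 was highest in replicate 1 (6490, 3513 and 3845 TPM), while 10 of the 13 were highest in replicate 3, against 40.5% of all genes with a mean of at least 10 CPM. The 12 melanocyte markers, led by Dct and Mlana, summed to 1027, 1317 and 1423 CPM. No marker in these lists was at 0 in all libraries. Oca2 of the melanocyte list and Rbfox3 of the neuron list were at 0 in at least 1. The part of these cells in the mitochondrial differences was not tested.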

How the data were processed

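Messenger RNA of 3 libraries of 1 group was analysed, with replicate numbers and groups taken from the labels. The authors deposited raw counts per gene and FPKM for each library, per the file headers. HISAT2, StringTie, edgeR and GRCm39 are named in the submitters' processing notes, with neither role nor version. The treatment of strand and of reads matching several genes is unstated in these sources. The length implied by count and deposited FPKM equalled the gene's span for all 40 genes within 0.2%. FPKM was rescaled to TPM and counts to CPM. Library totals ranged from 14095521 to 18460546, and 3 counts correspond to 0.163 to 0.213 CPM.

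Values are given per library or as mean ± SD. No test between groups was possible. Exact Poisson intervals are given for tRNA counts. Shares carry exact (Clopper-Pearson) 95% intervals where printed. TMM factors came from edgeR 4.0.16 and size factors from DESeq2 1.42.0. The scalings were run on simulated counts in which genes outside the set were raised in 1 library. That run checks the code only. It held no joint shift of the mitochondrial genes, so it does not show which scaling suits these data. Sequences came from GENCODE M21, whose 37 mitochondrial genes have the same start and end as in the table, and were compared with blastn 2.17.0 (word size 28, identity of at least 90%, alignment of at least 150 bases). Gene lists, members and alternatives were chosen with earlier results of these data known. By rule the text names all members, the 3 genes of highest mean TPM in each list of nuclear-encoded genes and the 2 highest of a marker list. The alternatives were other scalings, minimums, pseudocounts, length correction, each library left out and more copies.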

Additional observations from a re-analysis of the deposited data

How the results depend on the processing

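No paired analysis was possible because the labels give 1 group, so no replicate number is shared between groups. Of 59 alternatives over 11 results, 46 kept the value within a limit. For means the limit was the SD between libraries, and for counts and spreads a change of at most 1.5 times. For the ratio of highest to lowest library it was counting error alone. Leaving out 1 of 3 libraries cannot move a mean by its SD, so those alternatives could not exceed the limit. Leaving out a library or lowering the minimum could not change the 40 of 40 members at 1 TPM either. The number 46 is therefore no measure of stability. The ratio of the highest to the lowest library for the protein genes was 2.38 and became 2.78 with TMM scaling, 2.74 with TMM on genes with a mean of at least 1 CPM (chosen after seeing the data), 2.83 with DESeq2 size factors and 2.45 over nuclear counts. It ranged from 1.05 without replicate 2 to 2.38 without replicate 1. TMM shifted the libraries by -0.02, 0.12 and -0.10 on the log2 scale and DESeq2 by -0.02, 0.13 and -0.11. The median SD of log2(CPM + 1) over members was 0.72, beside 0.52 over all genes, and ranged from 0.33 without replicate 2, beside 0.45 over all genes, to 0.83 without replicate 3. Per length, the tRNA share rose from 0.186% to 2.78%, the copy share from 21.2% to 30.6% and the mt-Nd6 share from 2.25% to 4.56%. With all 7 copies of the block, chosen after seeing the data, the copy share was 24.2%. Of the 40 members, 26 stood at 10 TPM or more and 22 at 1 CPM or more. Adding the 3 or 7 copies raised the mean mt- share to 4.41% or 4.58%. Without replicate 3 the mean rRNA share of the mt- counts fell from 10.9% to 7.09% and the tRNA share from 0.186% to 0.121%. Low counts limit 15 of the 22 tRNA genes, and the number of libraries limits all values.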
